A study of Mus musculus with 2 samples.

Results

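The genes described here are 10 transcription factors and corepressors known from the deep layers of the cerebral cortex: Bcl11b, Fezf2, Tbr1, Tle4, Foxp1, Foxp2, Etv1, Sox5, Bcl11a and Zfpm2. They were chosen by symbol and not ranked by their measured values, but earlier results of these data were known. All 10 were found among the 55536 annotated genes, of which 22015 were nuclear and protein-coding. Total RNA had been sequenced from the left cerebral cortex of male mice of the strain B6CASTF1/J, a first-generation cross between C57BL/6 and CAST, aged 14 days. The 2 libraries, numbered as biological replicates 1 and 2, form 1 group, were made from 300 ng of RNA each and carried ERCC spike-ins, synthetic RNAs of known amount. The labels assign each library its own biosample, but they cite 1 donor entry for both and mention 3 males without stating whether tissue was pooled, so the spread between the libraries may be technical. With 1 group there was no condition to compare, and no p-value is given. A difference between the libraries had no replicate of its own. The libraries were not alike in genes of the striatum, which were mostly lower in replicate 2, and those values are given below.

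Many deep-layer projection neurons send axons out of the cortex, to the brainstem and spinal cord from layer 5 or to the thalamus from layer 6, and others project within the cortex. Their identity is set by a network of transcription factors that activate one fate and repress others: Fezf2 and Bcl11b act for subcerebral neurons of layer 5 and Tbr1 for corticothalamic neurons of layer 6. Several of these genes are not exclusive to the cortex. Bcl11b, Foxp1 and Foxp2 are also known from the projection neurons of the striatum, the nucleus below the cortex, and Bcl11b from inhibitory neurons.

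Some genes of the set were quantified as a mixture of transcript forms that differ in coding sequence, and the alternative stretches are shown here because the transcript shares given further on turn on them. They were chosen after the values had been seen. All are coding sequence of the mm10 reference, which carries C57BL/6 alleles, read 5′ to 3′ on the gene's strand from the GENCODE M21 transcript sequences. In the first 4, capitals mark the 6 bases at each edge of an exon that some transcripts skip. In the last pair, capitals mark the first 6 bases after the point up to which Bcl11a-201 and Bcl11a-202 share their coding sequence.
Bcl11b, exon 3 of 4, 216 nt, chr12:107965672-107965887, minus strand: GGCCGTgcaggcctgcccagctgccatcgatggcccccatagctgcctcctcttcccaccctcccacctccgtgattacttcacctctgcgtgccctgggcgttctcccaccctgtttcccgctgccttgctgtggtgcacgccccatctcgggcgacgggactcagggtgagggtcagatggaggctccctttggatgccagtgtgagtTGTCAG
Etv1, exon 5 of 13, 54 nt, chr12:38793171-38793224, plus strand: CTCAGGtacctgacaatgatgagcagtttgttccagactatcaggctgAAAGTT
Etv1, exon 9 of 13, 69 nt, chr12:38852220-38852288, plus strand: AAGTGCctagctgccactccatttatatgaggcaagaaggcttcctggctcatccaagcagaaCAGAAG
Sox5, exon 9 of 15, 147 nt, chr6:143907387-143907533, minus strand: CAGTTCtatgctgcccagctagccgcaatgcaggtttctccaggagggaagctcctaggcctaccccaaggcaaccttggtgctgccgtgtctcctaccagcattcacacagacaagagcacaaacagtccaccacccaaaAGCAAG
Bcl11a-201, exon 5 of 5, 89 nt, chr11:24172699-24172787, plus strand: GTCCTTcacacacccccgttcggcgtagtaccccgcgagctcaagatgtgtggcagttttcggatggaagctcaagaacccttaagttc
Bcl11a-202, within exon 4 of 4, 89 nt, chr11:24164889-24164977, plus strand: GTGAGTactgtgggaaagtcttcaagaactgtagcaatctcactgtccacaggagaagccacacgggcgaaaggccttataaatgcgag
The lengths of the skipped exons are multiples of 3, equal to 72, 18, 23 and 49 codons, so leaving one out keeps the reading frame. An exon may begin within a codon, so its first printed base need not start one.

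Replicate 1 was sequenced to 28377847 expected counts and replicate 2 to 30982776, where an expected count is a read assigned to a gene by estimation. The 10 genes took 22665 and 22186 of these, or 0.0802% and 0.0719% of the counts in genes. Single members had between 338 and 4800.76 expected counts in a library, all far above the minimum of 10 used for differences. Levels are given in TPM (a transcript abundance relative to all transcripts of the library), which is scaled by length and can be compared between genes. Differences between the libraries are given as log2 CPM, where CPM is the count relative to the library's effective size, replicate 2 minus replicate 1, each with a 95% exact binomial interval that covers counting error only.

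Each of the 10 genes was at a TPM of 1 or more in both libraries, against 58.7% of nuclear protein-coding genes. Their median was 26.93 TPM in replicate 1 and 24.20 in replicate 2 (25.56 ± 1.93, SD, n = 2). Foxp1 was the highest (69.18 ± 1.838 TPM) and was above 93.1% of nuclear protein-coding genes. Zfpm2 was the lowest (4.685 ± 0.4455 TPM) and was above 52.4% of them. Between these ends the order by mean was Bcl11a, Tbr1, Bcl11b, Etv1, Sox5, Tle4, Fezf2 and Foxp2. Neighbours whose ranges over the libraries overlapped were Bcl11a with Tbr1, Bcl11b with Etv1 and Foxp2 with Zfpm2. Bcl11a was above Tbr1 within each library, but a second table, made directly from the reads and summed over transcripts, gave the other order (65.9 and 68.1 TPM for Bcl11a, 106 and 106 for Tbr1). The range of Bcl11b also spanned that of Sox5: Bcl11b had rank 4 of the 10 in replicate 1 and rank 6 in replicate 2.

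**Figure D1:**
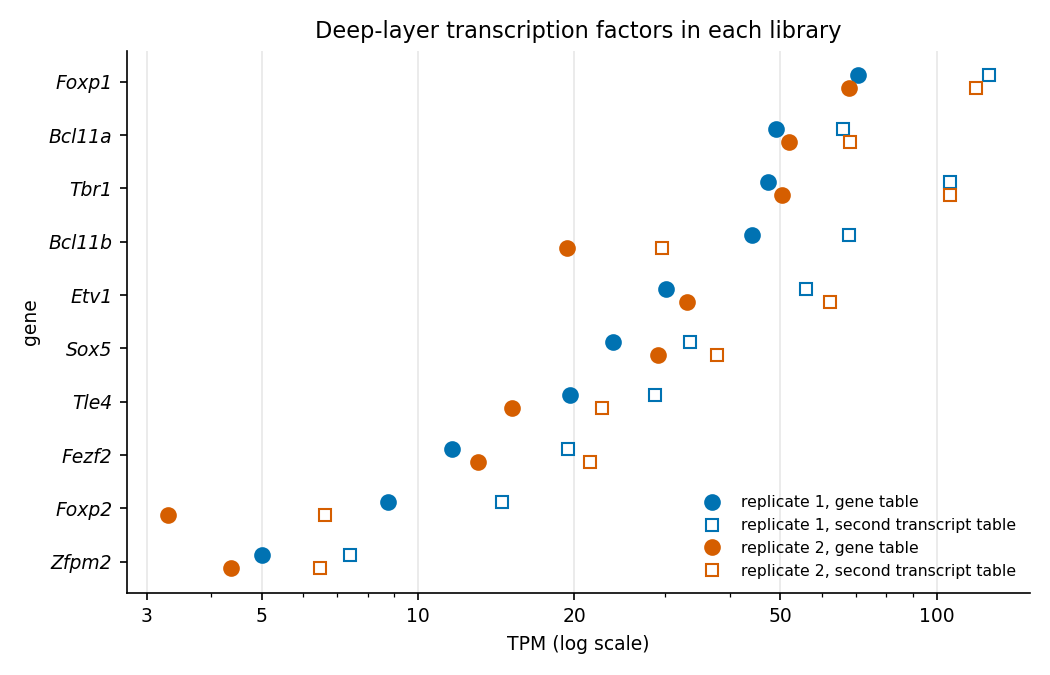
TPM (log scale) of the 10 genes in replicates 1 (blue) and 2 (orange), from the gene table (filled circles) and summed from the second transcript table (open squares). The pairs of circles lie close together except for Bcl11b (44.15 and 19.36 TPM) and Foxp2 (8.75 and 3.30 TPM), and within each library the square lies to the right of the circle for every gene.

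Among the factors of subcerebral neurons, Fezf2 was nearly level between the libraries and Bcl11b was not. Fezf2, a zinc finger factor that specifies subcerebral neurons and acts upstream of Bcl11b (chr14:12342094-12348189, minus strand), was at 11.65 TPM in replicate 1 and 13.09 in replicate 2. Its difference was 0.17 log2 CPM, 1.13-fold higher in replicate 2, from 469 and 567 counts, with an interval that reached from 0 to 0.35. Bcl11b, also called Ctip2, a zinc finger factor needed for axon outgrowth to the spinal cord and for striatal neurons (chr12:107910403-108003602, minus strand), was at 44.15 TPM in replicate 1 and 19.36 in replicate 2. From 4669 and 2366 counts its difference was -1.08 log2 CPM (interval -1.15 to -1.01), 2.11-fold lower in replicate 2. Of all genes with the same count minimum, 2.12% had a lower difference. Etv1, also called Er81, an ETS factor of layer 5 neurons (chr12:38779380-38870484, plus strand), was at 30.10 and 33.05 TPM, with a difference of 0.19 log2 CPM (interval 0.11 to 0.27), the most positive of the 10 and still only 1.14-fold.

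The factors of layer 6 and its corticothalamic neurons differed in how far the libraries were apart. Tbr1, a T-box factor that specifies layer 6 corticothalamic neurons and represses Fezf2 (chr2:61802930-61814114, plus strand), was at 47.41 and 50.28 TPM. Its difference was 0.12 log2 CPM (interval 0.05 to 0.19), or 1.08-fold. Tle4, a Groucho-family corepressor that marks corticothalamic neurons (chr19:14448150-14598051, minus strand), was at 19.68 TPM in replicate 1 and 15.22 in replicate 2. At -0.36 log2 CPM (interval -0.47 to -0.26) it was 1.29-fold lower in replicate 2, short of the 1.5-fold used as a call. Zfpm2, also called Fog2, a zinc finger cofactor of GATA factors found in corticothalamic neurons (chr15:40655035-41104592, plus strand), was at 5.0 and 4.37 TPM, and the interval of its difference, -0.35 to 0.04 log2 CPM, included 0. Foxp2, a forkhead repressor of layer 6 neurons that is known for its role in vocal and motor learning (chr6:14901349-15441977, plus strand), was at 8.75 TPM in replicate 1 and 3.30 in replicate 2. From 808 and 338 counts its difference was -1.35 log2 CPM (interval -1.54 to -1.17), 2.55-fold lower in replicate 2, and 1.26% of tested genes lay lower.

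The broader regulators of the set, which are not restricted to a single deep-layer class, were nearly level. Foxp1, a forkhead repressor of cortical and striatal neurons (chr6:98925338-99522721, minus strand), was at 70.48 TPM in replicate 1 and 67.88 in replicate 2. Its sign depended on the scale, with 0.12 log2 CPM (interval 0.06 to 0.18) against a log2 TPM ratio of -0.05. Bcl11a, the paralog of Bcl11b, which acts in deep-layer and callosal neurons (chr11:24078056-24174123, plus strand), was at 49.09 and 51.92 TPM, a difference of 0.09 log2 CPM. Sox5, a SoxD-group factor that times the production of deep-layer neurons (chr6:143828425-144781977, minus strand), was at 23.75 and 29.04 TPM, a difference of 0.13 log2 CPM and a log2 TPM ratio of 0.29.

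By the 1.5-fold call, 2 of the 10 genes, Bcl11b and Foxp2, were lower in replicate 2, and both were also past 2-fold. Among all 18965 genes measured, 6.61% were lower past 1.5-fold and 2.5% past 2-fold. None of the 10 was higher past 1.5-fold, against 4.35% of all genes, or past 2-fold, against 1.44%. Every member was deeply counted, so the share was also taken over the 9866 genes with at least 300 counts in 1 library, a minimum chosen after seeing the data: 1.52% were lower past 1.5-fold and 0.568% past 2-fold, while 0.689% and 0.0507% were higher. In sign, 4 members were lower and 6 higher in log2 CPM, Foxp1 changing sides on the TPM ratio, and their median of 0.10 stood beside -0.0003 for all genes. Fezf2, Tbr1, Foxp1, Etv1, Sox5 and Bcl11a all lay between 0.09 and 0.19 log2 CPM.

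**Figure D2:**
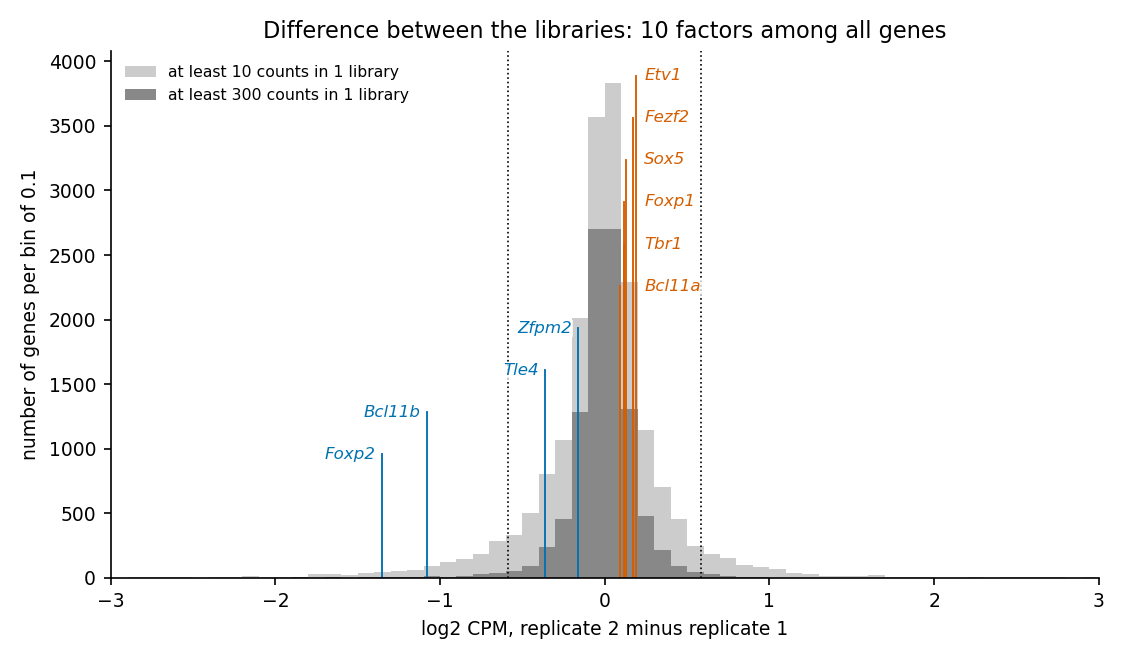
Number of genes per bin of 0.1 in the log2 CPM difference, replicate 2 minus replicate 1, for genes with at least 10 counts (light grey) or 300 counts (dark grey) in 1 library, with the 10 factors as labelled lines whose heights have no meaning. The horizontal axis is limited to values from -3 to 3 and dotted lines mark 1.5-fold. Foxp2 (-1.35) and Bcl11b (-1.08) lie beyond the left dotted line, and the 6 orange lines lie between 0.09 and 0.19.

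Genes known from the striatum were also lower in replicate 2. Of a list of 12 striatal projection neuron genes, 11 were lower in replicate 2 past 1.5-fold and 10 past 2-fold, with a median of -1.95 and a range of -2.88 to -0.58 log2 CPM. Their summed level was 626 TPM in replicate 1 and 177 in replicate 2. Over all genes, 6.61% were lower past 1.5-fold and 2.5% past 2-fold. None of the 12 striatal genes was at 0. The dopamine receptor genes Drd1 (30.78 and 8.15 TPM) and Drd2 (13.59 and 1.87 TPM) were present in both libraries. So was the adenosine receptor gene Adora2a (25.35 and 4.67 TPM), and the lowest was Six3 (4.57 and 0.59 TPM). Genes of inhibitory neurons were also lower in replicate 2, with 3 of 7 past 1.5-fold, a median of -0.50 and a sum of 296 against 217 TPM. Those 3 were Slc32a1 (-0.63), Dlx5 (-0.66) and Dlx6 (-1.16), and Lhx6 had the smallest difference (-0.23). The list is not limited to inhibitory neurons of the cortex, and its overlap with striatal neurons was not tested. Of 8 oligodendrocyte lineage genes, 3 were lower past 1.5-fold, with a median of -0.53 and a sum of 1070 against 711 TPM. The part of any of these in the values of Bcl11b and Foxp2 was not tested. Foxp1, also known from striatal projection neurons, was nearly level (0.12 log2 CPM, log2 TPM ratio -0.05). In bulk tissue, fewer cells of a type and less RNA per cell cannot be told apart.

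Genes of cortical excitatory neurons and of the upper layers were higher in replicate 2. All 6 cortical excitatory neuron genes were at a TPM of 1 or more in both libraries and were higher in replicate 2 by a median of 0.37 log2 CPM, 1 of them past 1.5-fold, with sums of 2530 and 3150 TPM. All 8 upper-layer transcription factors analysed were higher in replicate 2, 3 of them past 1.5-fold, with a median of 0.49. Over all genes, 4.35% were higher past 1.5-fold. Rorb, a nuclear receptor of layer 4 neurons, was at 20.42 and 34.42 TPM (0.78 log2 CPM), and Mef2c, a MADS-box factor of cortical neurons, was at 313.10 and 471.54 TPM (0.64). Pan-neuronal genes had a median of 0.11, housekeeping genes of -0.01, astrocyte genes of 0.03, microglial genes of 0.07 and endothelial genes of 0.13 log2 CPM, with 0 past 1.5-fold. Of 6 thalamic genes, 1 was lower past 1.5-fold (Gbx2, with 15 and 0 counts) and 2 were higher. In sign 4 were lower, their median was -0.44 log2 CPM, and their sums were 48.6 and 47.5 TPM. Of 4 cerebellar and 3 skeletal muscle genes, 0 were at a TPM of 1 or more in each library.

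Other genes of deep-layer neurons lay on both sides. Of 12 other regulators known from deep layers, only Lmo3, a LIM-domain protein (117.67 and 66.15 TPM, -0.87 log2 CPM), was past 1.5-fold, and the median was 0.14, with 7 of the 12 higher in replicate 2. The most positive were Pou3f1, a POU factor of layer 5 neurons (9.49 and 13.71 TPM, 0.53), and Tshz3, a zinc finger factor (15.28 and 21.43 TPM, 0.43), both short of the call. Lmo4, a related LIM-domain protein (121.62 and 140.14 TPM), Nr2f1, a nuclear receptor that patterns cortical areas (52.81 and 60.64 TPM), and Nfib, a nuclear factor I gene (42.39 and 42.97 TPM), were among the highest. Of the 12 layer 5 subcerebral genes, 3 were lower in replicate 2 past 1.5-fold and 0 higher, against 6.61% and 4.35% of all genes. These were Crym, which encodes a thyroid hormone-binding protein (83.40 and 45.76 TPM, -0.86), Vat1l (38.16 and 21.19 TPM, -0.79) and Sulf1, an enzyme that edits heparan sulfate (7.04 and 4.6 TPM, -0.66). Ldb2, a LIM-domain cofactor of subcerebral neurons, was level (25.06 and 26.14 TPM, 0.13), and the median of that list was -0.04. The list held genes on both sides. Pcp4, a calmodulin-binding protein, was lower in replicate 2 but short of the call (341.70 and 240.80 TPM, -0.51). The summed level of the list was 569 TPM in replicate 1 and 416 in replicate 2.

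In the layer 6 lists most genes were lower in replicate 2 in log2 CPM, 7 of 8 in each, against 9498 of all 18965 genes measured. In each list 1 gene was lower past 1.5-fold, against 6.61% of all genes. The share was 1.52% among genes with at least 300 counts in 1 library, a minimum that the layer 6b gene, Nxph4 (113 and 64 counts), did not reach. Of 8 corticothalamic genes measured, 1 was past 1.5-fold: Syt6, a synaptotagmin (12.61 and 5.74 TPM, -1.05 log2 CPM), and the median was -0.22. Ntsr1, the neurotensin receptor used to mark corticothalamic neurons, was at 5.97 and 5.18 TPM (-0.21), and Garnl3 was the only one higher in replicate 2 (60.34 and 71.16 TPM, 0.15). Of 8 genes of layer 6b, the thin sheet of neurons above the white matter, Nxph4 was past 1.5-fold (3.78 and 2.00 TPM, -0.90), and the median was -0.34. Ccn2, a secreted matrix protein and a common layer 6b marker, was level (15.90 and 15.97 TPM, 0.02). Of 5 layer 5 intratelencephalic genes measured, which mark neurons that project within the cortex, 0 were past 1.5-fold, and the median was -0.02.

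**Figure D3:**
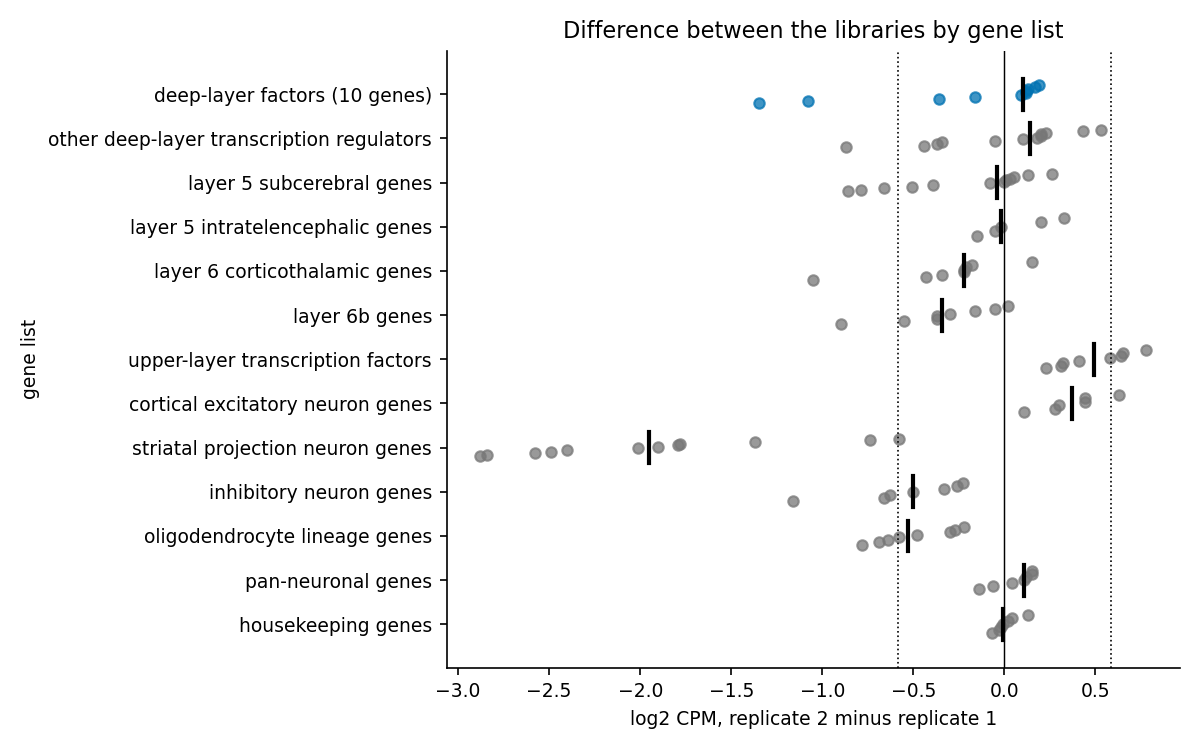
Difference in log2 CPM, replicate 2 minus replicate 1, of each gene (points) in the 10 factors (blue) and in 12 comparison lists (grey), with black bars at list medians and dotted lines at 1.5-fold. Bcl11b and Foxp2 are the blue points beyond the left dotted line, the striatal genes lie furthest left with a median of -1.95, and the upper-layer factors lie right of 0.

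Ratios between the members and their relatives or partners were taken within each library, as the log2 ratio of TPM + 0.1. A direction was given where both libraries shared it and the mean exceeded the SD. Among the 16 pairs, the gene named first was the higher one in 11 and the lower one in 2, and 3 pairs were not separated. The unseparated pairs were Bcl11a with Bcl11b (0.15 and 1.42), Tbr1 with Bcl11b (0.10 and 1.37) and Tle4 with its relative Tle1 (0.07 and -0.32). Bcl11b stood in 2 of these 3. In the second transcript table Tbr1 was above Bcl11b in both libraries (0.64 and 1.84, mean 1.24), so the lack of separation of that pair holds for the gene table only. The ratio of Tbr1 to Fezf2, in contrast, was 2.02 and 1.93 (1.97 ± 0.06, n = 2).

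In most families a gene of the set was above the relatives it was paired with. Tbr1 exceeded its T-box relative Eomes, a factor of dividing intermediate progenitors that had 8 counts in each library, by 7.71 ± 0.28 log2 units. Fezf2 exceeded Fezf1 (6 and 5 counts) by 5.79 ± 0.25. Among forkhead genes, Foxp1 exceeded Foxp2 by 3.00 and 4.32 log2 units in replicates 1 and 2, and Foxp4 (23.98 and 19.61 TPM) by 1.67 ± 0.17. Foxp2, also of the set, was below Foxp4 in both libraries (8.75 and 3.30 TPM), a comparison not among the pairs. Foxp3, the forkhead factor of regulatory T cells, was at 0.02 and 0.01 TPM. Etv1 exceeded its ETS relatives Etv5 by 0.31 ± 0.05 and Etv4 by 1.97 ± 0.03, and the libraries nearly coincided for both. Sox5 exceeded the other SoxD genes Sox6 (0.61 ± 0.49) and Sox13 (2.87 ± 0.54).

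The Groucho and Fog families did not follow that order. Tle4 was below Tle3 (34.97 and 44.62 TPM) by -1.19 ± 0.51 log2 units, and Zfpm2 was below Zfpm1 (8.03 and 9.30 TPM) by -0.87 ± 0.28. Tle2 (9.08 and 6.41 TPM) and Tle6 (1.57 and 0.61 TPM), not among the pairs, were below Tle4 in both libraries. The highest Groucho-family gene was Aes, also called Tle5, a short member of the family without the C-terminal repeats, at 292.07 and 260.78 TPM. Of the 15 relatives listed, 11 had enough counts for a difference. Of these 1 was lower in replicate 2 past 1.5-fold, Tle6, with only 15 and 10 counts, against 6.61% of all genes. Their median difference was -0.04 log2 CPM.

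**Figure D4:**
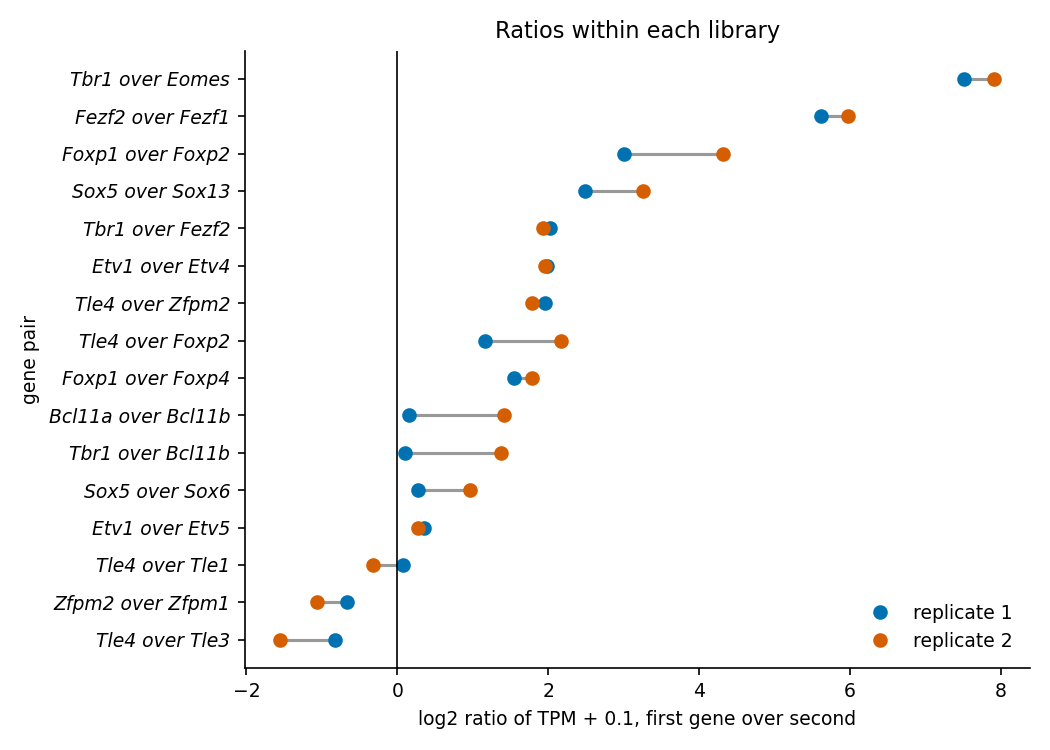
Log2 ratio of TPM + 0.1, first gene over second, for 16 pairs in replicates 1 (blue) and 2 (orange), joined by grey lines. The longest lines belong to pairs that include Bcl11b or Foxp2, and the line of Tle4 over Tle1 crosses 0, from 0.07 to -0.32.

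Transcript shares were read from 2 tables, the first made from alignments to the transcriptome and the second directly from the reads. The 10 genes had 101 annotated transcripts in all. In the first table, a single transcript held more than 50% of the abundance in both libraries for 5 of the 10 (Bcl11b, Fezf2, Tbr1, Tle4 and Zfpm2), against 62.4% of 12210 genes with more than 1 transcript and a TPM of 1. In the second table it was 6 of 10, with Bcl11a added, against 55.4%. Both tables placed the same transcript first for 8 of the 10, Foxp1 and Foxp2 being the exceptions, against 76% of those genes. Shares that differ between the tables are estimates, and no reads across splice junctions were available to decide between them.

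Bcl11b was divided between 2 forms of its protein, with and without exon 3. Bcl11b-201, which holds that exon (printed above) and has 2652 coding bases, made up 53.26% of the gene's TPM in replicate 1 and 62.09% in replicate 2. Bcl11b-203, which skips it and has 2436 coding bases, made up 46.25% and 35.94%. The second table gave nearly the same shares for Bcl11b-201, 50.9% and 60.0%. In TPM both forms were lower in replicate 2, at 23.51 and 12.02 for Bcl11b-201 and at 20.42 and 6.96 for Bcl11b-203.

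Etv1 mostly kept its optional exons. Transcripts with the 54 nt exon held 80.8% and 99.0% of the TPM of transcripts spanning it in the first table and 92.2% and 97.8% in the second. Beside the value of 80.8% stood Etv1-205, which held 19.02% of the gene in replicate 1 (5.72 TPM) and was listed at 0 in replicate 2. The second table gave Etv1-205 only 2.62% and 0%. For the 69 nt exon the shares were 81.5% and 76.7% in the first table and 94.9% and 95.1% in the second, so the tables differed by more than the libraries did.

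Sox5 was the least settled of the genes with skipped exons. Its 147 nt exon was held by 2 of 10 spanning transcripts, which took 54.5% and 62.0% of the spanning TPM in the first table and 34.6% and 40.1% in the second. Those 10 included retained-intron and processed transcripts, which do not code for protein. Here as for Etv1, an exon counted as held only where both its annotated edges matched. Protein-coding transcripts made up 61.6% and 51.3% of Sox5 in the first table and 73.1% and 69.9% in the second. Sox5-208, a processed transcript of 351 nt, took 17.11% and 22.71% in the first table and 0% in the second. Retained-intron transcripts took 13.4% and 18.1% of Sox5 in the first table.

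Bcl11a was quantified mainly as 3 protein forms that differ in length and at the C-terminal end. Bcl11a-201, with 2319 coding bases, took 47.90% and 45.68% of the gene in the first table and 58.6% and 54.1% in the second. Bcl11a-202, with 2505 coding bases, reads on through the exon that Bcl11a-201 leaves, and took 18.11% and 19.70%, against 20% and 22.6% in the second table. Bcl11a-204, with only 573 coding bases, took 20.26% and 18.36% in the first table but 8.81% and 8.25% in the second. Bcl11a-205, a retained-intron transcript, took 10.17% and 10.38%, against 11.2% and 11.5% in the second table. Both Bcl11a-201 and Bcl11a-204 end in the same last exon, with 89 and 99 coding bases in it. The coding bases before that exon number 2230 and 474, which leave remainders of 1 and 0 on division by 3, so the exon is read in different frames.

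Tle4, Zfpm2, Fezf2 and Tbr1 each had 1 leading coding form. Tle4-201 took 95.56% and 96.50% of Tle4, and Zfpm2-201 took 76.17% and 85.56% of Zfpm2. Fezf2 was divided between Fezf2-201 (79.16% and 73.15%) and Fezf2-203 (16.87% and 23.34%), both with 1365 coding bases. Tbr1-201 took 93.04% and 96.81% in the first table but 57.9% and 62.7% in the second, which gave 41.2% and 36.8% to Tbr1-203, a processed transcript of 796 nt. Tbr1 was also the one of the 10 whose level in TPM differed most between the tables: the second table was 2.24 and 2.11 times the first in the 2 libraries, against a median of 1.56 and 1.54 for protein-coding genes.

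Foxp1 and Foxp2 were spread over 31 and 20 annotated transcripts. Foxp1-204 led in the first table with 28.97% and 35.51%, but had 16.6% and 17.3% in the second, where Foxp1-218 led with 29.8% and 19.7%. The first table gave Foxp1-218 3.02% and 0%. Their annotated coding lengths differ, with 2115 bases in Foxp1-204 and 335 in Foxp1-218. Foxp2 was divided mainly between Foxp2-207 (36.82% and 40.69%) and Foxp2-201 (33.22% and 29.14%), both with 2142 coding bases, and the second table placed Foxp2-201 first with 41.8% and 29.4%. In neither library was 1 transcript of these genes in the majority.

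**Figure D5:**
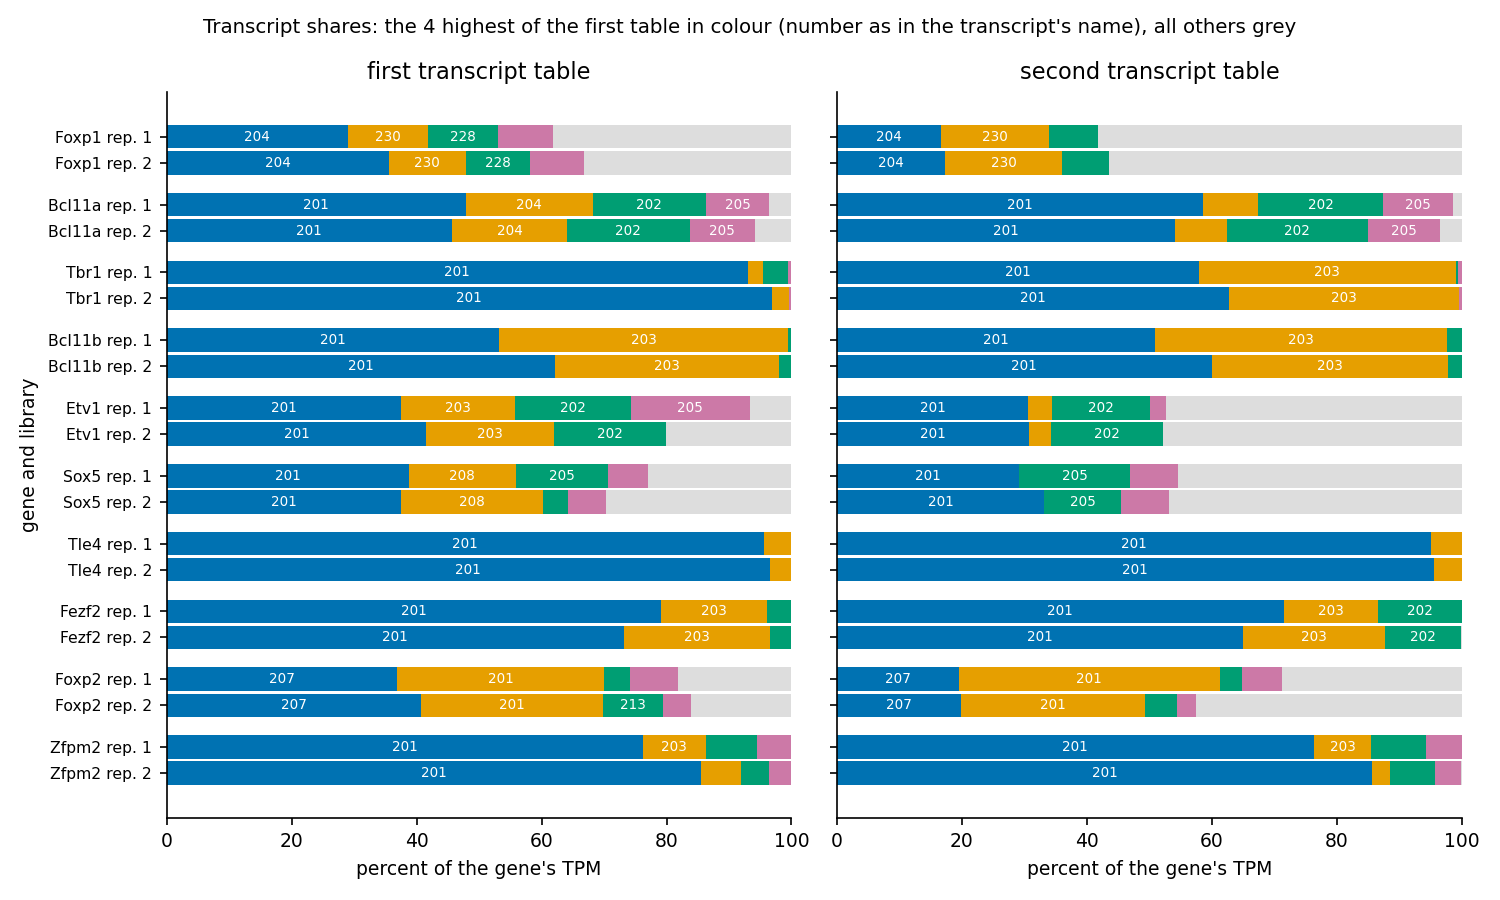
Percent of each gene's TPM held by its transcripts in both libraries, in the first (left) and second (right) transcript table. Colours are the 4 highest transcripts of the first table, numbered as in the transcript's name where the bar is wide enough, and all others are grey. Tle4-201 fills nearly the whole bar in both tables (95.56% and 96.50% in the first), while Tbr1-203 and the grey parts of Foxp1, Etv1 and Sox5 are wider on the right.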

How the data were processed

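Total RNA of 2 cortex libraries was analysed. Per the file headers and the notes deposited beside them, the authors quantified a gene table and a first transcript table from alignments to the transcriptome (mm10, GENCODE M21), and a second transcript table directly from the reads. The deposited expected counts are reads assigned to a gene or transcript by estimation, with no normalization. The deposited TPM values are scaled by effective length over all entries of a file. The deposited percent values give each transcript's share of its gene. Column names are those that RSEM and kallisto write. Which tools, versions and strand setting were used is not given in the sources used here, so overlapping and antisense genes may share reads. How reads of the CAST allele aligned to mm10 was not examined.

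Genes were matched to GENCODE M21 by identifier. Expected counts were rounded, and log2 CPM differences were computed in edgeR 4.0.16 (R 4.3.3) with TMM factors (prior count 2) for genes with at least 10 counts in 1 library. DESeq2 1.42.0 gave alternative size factors. A call means at least 1.5-fold. Intervals of 95% are exact binomial and cover counting error only. A count of 0 allows up to 0.106 and 0.0972 CPM in replicates 1 and 2. The second table was summed per gene. Other steps used Python 3.11.15 with pandas 2.3.3, numpy 2.4.6, scipy 1.17.1 and matplotlib 3.10.9. The computation of log2 CPM differences was tested on simulated counts. Printed sequences come from the GENCODE M21 transcripts.

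The 10 genes, the gene lists (20 with that of the members) and the 16 pairs were chosen with earlier results of these data known. Named genes were all members and, from each list, those with the highest mean TPM and the largest and smallest differences, with other listed genes allowed. Transcripts were named from a mean share of 10% in the first table, and Tbr1-203, Foxp1-218, Etv1-205 and the exons shown were chosen after their values were seen. Alternatives were other size factors, no factor, other count filters, another prior count, the TPM ratio, the second table, another pseudocount, another share and leaving out each replicate. One item of the upper-layer list, and the pairs with it, are not reported here.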

Additional observations from a re-analysis of the deposited data

How the results depend on the processing

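Bcl11b and Foxp2 were the members past 1.5-fold under every scaling, filter and prior count tried, at 2-fold and in the second table, and 0 members were higher. The median difference of the 10 genes was 0.10 log2 CPM and 0.01 as a TPM ratio. The median level was 25.56 TPM, 39.21 in the second table and 54.77 when TPM was rescaled over nuclear protein-coding genes, and leaving out a replicate gave 24.20 to 26.93. The number of members with 1 main transcript was 5 at a share of 50% and 3 at 75%. It was 5 without either replicate. Leaving out a replicate leaves no difference between libraries, so none was computed. The 300-count minimum was chosen after seeing the data. No paired analysis was possible because both libraries form 1 group.

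For single genes, 10 of 10 differences kept their direction and size under other size factors, filters and prior counts, and 3 of 10 moved by more than counting error as a TPM ratio. Of 16 pair ratios, 5 moved by more than their SD with a pseudocount of 1 and 6 in the second table, and none of the directions given reversed. Depth limits Zfpm2 and Fezf2, whose intervals reach 0, and transcript shares carry no counting error here.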

Other observations

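Annotated genes that overlap the 10 factors were quantified on their own. Gm20696, a protein-coding entry on the strand of Foxp1 (chr6:99257484-99666797), took 136.22 and 115.56 expected counts, so reads of the region it shares with Foxp1 were divided by estimation. All 7 genes annotated on the strand opposite a member, Sox5os1 to Sox5os5 within Sox5 and Gm12064 and 4930538E20Rik within Bcl11a, were listed at 0 in both libraries. Gm49526, an entry within Zfpm2 on the same strand, took 39 and 28 counts.

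The level of Sox6, a SoxD relative of Sox5, depended on the scale: its difference was 0.01 log2 CPM and its log2 TPM ratio -0.40.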
